A study of Homo sapiens with 10 samples.

Results

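The complement genes described here are 9 of the 62656 genes in the deposited table: the membrane regulators CD59, CD55 and CD46, the soluble regulators CFI, CLU and SERPING1, the proteases C1R and C1S, and the central component C3. They were chosen by symbol, as membrane and soluble regulators and components of complement, and each symbol matched 1 Ensembl gene. RNA was sequenced from PC3 cells, an established human prostate cancer line grown from a bone metastasis, which were starved overnight and then kept for 24 h in the vehicle DMSO or in GW3965 at 1 µM, which activates the Liver X Receptors (LXRs). Both groups shared the cell line and medium and held 5 libraries each. PC3 is a single line, and nothing in the sample records says whether the libraries of a group came from separate cultures, so p-values measure the spread between these libraries, which may be technical.

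Complement is a protease cascade of blood and tissue fluid that marks cells with C3 fragments and can end in a pore, the membrane attack complex. Host cells protect themselves with membrane proteins: CD55 breaks up the C3-cleaving enzymes, CD46 serves as a cofactor for the protease CFI, which cuts deposited C3 and C4 fragments, and CD59 blocks the assembly of the pore. SERPING1 (C1 inhibitor) inactivates C1R and C1S, the proteases that start the classical pathway, and CLU (clusterin) binds terminal complexes in solution. Most soluble components are made by the liver, and tumor cells of many tissues carry the membrane regulators.

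Values are given in RPKM as the authors deposited them, read counts divided by gene length and by a scale factor per library. They are therefore comparable between genes as far as the gene lengths behind them are. The scale factors did not follow the total reads. Relative to DMSO library 1, with 34382005 reads, the factor was 1.10 for GW3965 library 3, with 41636852 reads. The reads behind each value were recovered from its steps and summed to between 30429755 and 41636852 per library. By this method 100% of the values above 0 were whole within a relative tolerance of 1e-06. Because reads were built as whole numbers in the ratio of a gene's values, this share is not an independent check of the counts. Differences were tested with limma on log2(RPKM + 0.1) for 20402 genes whose mean reached 0.5 RPKM, and p-values were adjusted over all of them by the Benjamini-Hochberg method. Known LXR targets were higher with GW3965: ABCA1, the cholesterol exporter and LXR target, rose from 3.43 ± 1.34 to 16.5 ± 2.37 RPKM (SD, n = 5, limma adjusted p = 0.00063), with ABCG1 (log2 fold change 2.13) and SREBF1 (0.74) also past the threshold of 0.05. In bulk RNA, more transcripts per cell and more cells that express a gene cannot be told apart. The epithelial keratins KRT8 and KRT18 had means of 36.6 and 49.6 RPKM, whereas the epithelial cadherin CDH1 had 0.285 RPKM and the mesenchymal filament gene VIM 69.5 RPKM. EPCAM stood at 1.73, COL1A1 at 0.928 and PECAM1 at 0.604 RPKM. Of further markers of luminal, blood, macrophage, endothelial, fibroblast and liver cells, KLK3 was listed at 0, and KLK2, PTPRC, CD14, CD68, C1QA, VWF, PDGFRB, ALB and APOA1 had at most 21 reads in any library.

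The promoters of the 3 membrane regulators are shown because these genes held most of the summed RPKM of the 9 genes and include CD59, which had the lowest p of the 6 tested. In GENCODE 29 on GRCh38, CD59 lies on the − strand of chromosome 11 from 33703010 to 33736491, and CD55 and CD46 lie on the + strand of chromosome 1, from 207321376 to 207386804 and from 207752057 to 207795513. The windows below are RefSeq's (GRCh38.p14), from 250 bases before to 50 bases after a transcript start, 5′ to 3′ on the gene's strand: chr11:33736430-33736729 for CD59 (−), chr1:207321428-207321727 for CD55 (+) and chr1:207751788-207752087 for CD46 (+). Capitals mark GGGCGG (GC box), CCAAT and AGGTCA (the hexamer that nuclear receptors bind) on either strand.
CD59: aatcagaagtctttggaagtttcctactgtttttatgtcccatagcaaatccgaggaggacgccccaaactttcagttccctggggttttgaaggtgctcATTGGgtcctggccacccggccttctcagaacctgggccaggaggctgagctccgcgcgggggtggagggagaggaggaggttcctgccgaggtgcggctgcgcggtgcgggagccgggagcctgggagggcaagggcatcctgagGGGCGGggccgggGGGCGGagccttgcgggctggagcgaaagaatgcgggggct
CD55: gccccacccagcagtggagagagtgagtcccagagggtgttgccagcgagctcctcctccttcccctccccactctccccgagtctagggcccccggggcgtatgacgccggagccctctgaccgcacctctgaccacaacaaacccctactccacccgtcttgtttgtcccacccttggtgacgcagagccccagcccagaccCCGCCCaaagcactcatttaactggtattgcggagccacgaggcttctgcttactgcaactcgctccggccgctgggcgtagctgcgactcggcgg
CD46: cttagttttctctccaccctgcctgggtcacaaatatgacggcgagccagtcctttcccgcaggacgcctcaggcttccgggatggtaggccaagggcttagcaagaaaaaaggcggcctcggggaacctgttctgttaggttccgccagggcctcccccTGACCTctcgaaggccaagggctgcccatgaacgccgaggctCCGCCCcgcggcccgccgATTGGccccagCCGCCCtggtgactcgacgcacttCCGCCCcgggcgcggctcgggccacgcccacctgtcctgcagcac
The CD59 window held 2 GC boxes and 1 CCAAT, the CD55 window 1 GC box, and the CD46 window 3 GC boxes, 1 CCAAT and 1 AGGTCA. Over the 34796 distinct windows of that table, 44.9% held GGGCGG, 34.6% CCAAT and 13.8% AGGTCA on at least 1 strand. The repeat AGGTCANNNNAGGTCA, the consensus form of an LXR response element, was in 0 of these 3 windows and in 0.0201% of all windows, and TATAAA was in 0 of the 3 and in 11.6% of all. Among the other 6 genes, C1R and CFI had windows in the table, which held 0 GC boxes, C1S, C3 and SERPING1 had no entry, and CLU was not analysed here for sequence. RefSeq lists 4 start windows for CD59, and those at chr11:33722900-33723199 and chr11:33722678-33722977 held 0 GC boxes. A match is a string of letters, and binding was not measured here.

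By level, the 9 genes fell into an expressed set of 6 and a set of 3 near the limit of detection. The mean over all 10 libraries was 50.8 RPKM for CD59, 24.7 for CLU, 10.2 for CD55, 10.1 for CD46, 5.71 for C1R and 1.17 for C1S, against 0.0667 for SERPING1, 0.0273 for CFI and 0.0223 for C3. CD59 ranked 854 of 20402 tested genes by mean RPKM. Neighbours in this order were separated in all libraries from CD59 to CLU, from CLU to CD55, from CD46 to C1R, from C1R to C1S and from C1S to SERPING1. The RPKM ranges overlapped for CD55 (8.26 to 14.4) and CD46 (7.55 to 11.1), and for SERPING1, CFI and C3. The order of CD55 and CD46 also rests on gene length: the values imply 10254 and 15505 bases of exon, against 5908 and 8708 in GENCODE 29, and with the latter the means were 17.7 and 18.0 RPKM. On those lengths the range of CD55, 14.3 to 25.0 RPKM, also overlapped that of CLU, 17.8 to 28.9 RPKM.

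**Figure D1:**
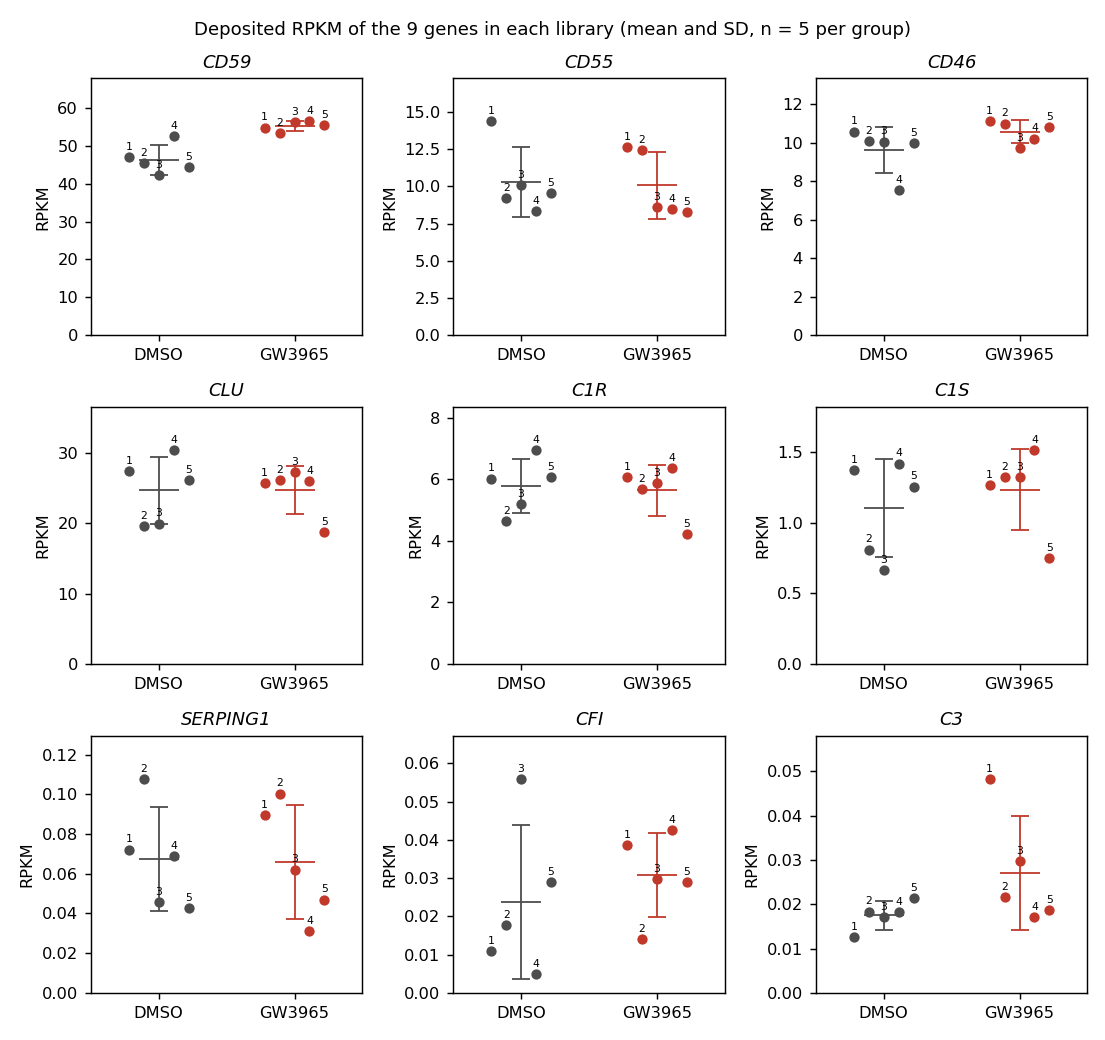
RPKM (y axis, from 0, a scale per gene) of the 9 complement genes in the DMSO (grey) and GW3965 (red) libraries, with each point a library numbered by replicate and bars for the mean and SD (n = 5). For CD59 all GW3965 points lie above all DMSO points, and for the other 8 genes the groups overlap.

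With GW3965 against DMSO, none of the 6 expressed complement genes was past the threshold over all tested genes (0 of 6 by limma; 1, CD59, had an unadjusted p under 0.05; limma's voom on the recovered reads also called 0). Over all 20402 tested genes, 32 (0.157%) were called, 30 higher and 2 lower, and 1427 had an unadjusted p under 0.05. CD59, the inhibitor of the membrane attack complex, stood at 47.0, 45.4, 42.3, 52.6 and 44.4 RPKM in DMSO libraries 1 to 5 and at 54.9, 53.4, 56.3, 56.6 and 55.5 RPKM in GW3965 libraries 1 to 5. The groups did not overlap, but DMSO library 4 came within 1 RPKM of the lowest GW3965 library, and the DMSO libraries were spread more widely. This separation was complete with the deposited scale factors. Scaled by read totals instead, the groups would overlap only through DMSO library 4 and GW3965 library 3, which were almost equal. DMSO library 4 had 21120 CD59 reads of 39028995 in all, and GW3965 library 3 had 22521 of 41636852. These totals include 7SL RNA, at 18.3% and 23.2% of the reads in the same order, and totals without it were not tried. The means were 46.3 ± 3.88 and 55.3 ± 1.28 RPKM (SD, n = 5), a 1.20-fold difference on the log2(RPKM + 0.1) scale (95% interval 1.09 to 1.31; log2 fold change 0.26, standard error 0.06, limma adjusted p = 0.206).

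Among all tested genes, 1.35% had every GW3965 library above every DMSO library, and CD59 was the only 1 of the 6 tested complement genes for which this held. By limma's p, 131 tested genes were ahead of CD59. By limma, the call depended on DMSO library 4. Without it, the log2 fold change was 0.31 and the limma adjusted p 0.0433. With weights for library quality the limma adjusted p was 0.0402. The paper's own test of this contrast lists CD59 with a similar fold change and an adjusted p under 0.05, so the call also differs by method. Over all 21 alternative settings the log2 fold change lay between 0.23 and 0.31 and the limma adjusted p between 0.0402 and 0.444.

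**Figure D2:**
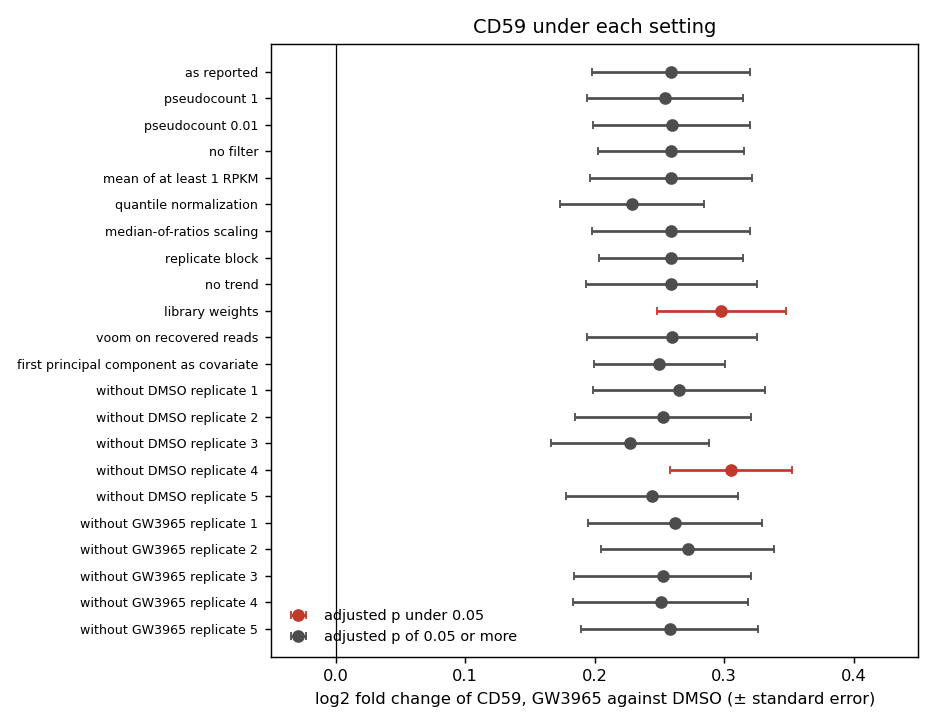
Log2 fold change of CD59, GW3965 against DMSO (x axis), with its standard error, as reported and under each of 21 alternative settings (rows). All values lie between 0.23 and 0.31, and the red points, library weights and the fit without DMSO library 4, had a limma adjusted p under 0.05.

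The depth behind CD59 was high, with 13525 to 22530 reads per library, so counting error was 0.731% of its value while the spread within groups was 6.13%. The predicted protein-coding gene AL049629.2 overlaps the 3′ part of CD59 on the same strand and had 3 to 29 reads per library. The nearest protein-coding genes on either side are C11orf91, with a log2 fold change of 0.10 (standard error 0.24), and FBXO3, which encodes an F-box protein of a ubiquitin ligase, with 3.09 ± 0.146 RPKM in DMSO and 3.23 ± 0.0809 RPKM in GW3965 libraries (SD, n = 5; log2 fold change 0.06, limma adjusted p = 0.903).

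The 5 genes whose pattern over the 10 libraries was most like that of CD59 were MYOF, TPM4, TACC1, CANX and ELOVL5, among 4347 other genes that averaged 10 RPKM or more. Likeness was measured as the root mean square difference of standardized log2 values, which was 0.192 for MYOF, a ferlin of membrane repair, 0.224 for TPM4, a tropomyosin, and 0.313 for ELOVL5, a fatty acid elongase. Their log2 fold changes lay between 0.17 for CANX, a chaperone of the endoplasmic reticulum, and 0.28 for TACC1, and the limma adjusted p between 0.227 and 0.61. Because the pattern includes the treatment groups, genes with a similar difference between them are favoured by this measure.

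CD55, the other GPI-anchored regulator, varied more between libraries than between treatments. It stood at 14.4, 9.22, 10.1, 8.35 and 9.52 RPKM in DMSO libraries 1 to 5 and at 12.6, 12.4, 8.59, 8.47 and 8.26 RPKM in GW3965 libraries 1 to 5. DMSO library 1 and GW3965 libraries 1 and 2 were high, and the other 7 libraries lay between 8.26 and 10.1 RPKM. The means were 10.3 ± 2.36 and 10.1 ± 2.24 RPKM (SD, n = 5; log2 fold change -0.04, standard error 0.17, limma adjusted p = 0.987), with a 95% interval from 0.754-fold to 1.26-fold. Its spread within groups, 22.5%, was 13.5 times the counting error. The sign of the difference changed when DMSO library 1 was left out (log2 fold change 0.090) or when any of GW3965 libraries 3 to 5 was (0.015 to 0.029). On the first principal component of all tested genes, which held 19.6% of the variance, the 3 libraries with high CD55 had scores from -31.6 to -25.0, DMSO library 5 had -21.1 and the others had -0.84 or more. With this component as a covariate, the log2 fold change of CD55 was 0.018 and its standard error 0.091, against 0.17 without it. The part of this component in the CD55 values was not itself tested.

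CD46 had 10.6, 10.1, 10.1, 7.55 and 9.96 RPKM in DMSO libraries 1 to 5 and 11.1, 11.0, 9.71, 10.2 and 10.8 RPKM in GW3965 libraries 1 to 5. Of the GW3965 libraries, 3 lay above all DMSO libraries, and DMSO library 4 was low on its own. The means were 9.64 ± 1.20 and 10.6 ± 0.592 RPKM (SD, n = 5; log2 fold change 0.14, standard error 0.09, limma adjusted p = 0.835), with a 95% interval from 0.96-fold to 1.26-fold. Without DMSO library 4, the log2 fold change was 0.054. That library thus had the lowest RPKM of CD46 and the highest of CD59 within its group.

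Summed over CD59, CD55 and CD46, the membrane regulators had from 62.5 to 72.0 RPKM in the DMSO libraries and from 74.6 to 78.6 RPKM in the GW3965 libraries. CD59 made up from 65.3 to 76.8% of this sum with DMSO and from 69.5 to 75.5% with GW3965, so the shares overlapped. The gap between the sums rests on the deposited gene lengths: with those of GENCODE 29 the sums ran from 78.6 to 91.7 RPKM with DMSO and from 89.6 to 97.6 RPKM with GW3965 and overlapped, because DMSO library 1, with its high CD55, stood above GW3965 libraries 3 to 5. On the deposited RPKM scale CD59 exceeded CD55 by 3.27 to 6.30 times in the DMSO and 4.30 to 6.72 times in the GW3965 libraries, and with GENCODE 29 lengths by 1.92 to 3.70 and 2.53 to 3.95 times.

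Among the soluble and protease genes, CLU, C1R and C1S shared a pattern over libraries that cut across the treatments. CLU had 27.4, 19.6, 20.0, 30.4 and 26.1 RPKM in DMSO libraries 1 to 5 and 25.7, 26.1, 27.3, 26.0 and 18.7 RPKM in GW3965 libraries 1 to 5. DMSO libraries 2 and 3 and GW3965 library 5 were low, at 18.7 to 20.0 RPKM, and the other 7 libraries lay between 25.7 and 30.4 RPKM. C1S had 1.37, 0.811, 0.665, 1.42 and 1.26 RPKM with DMSO and 1.27, 1.32, 1.32, 1.52 and 0.748 RPKM with GW3965, in the same order, and the same 3 libraries were low, at 0.665 to 0.811 RPKM against 1.26 to 1.52. C1R had 6.02, 4.65, 5.20, 6.95 and 6.06 RPKM with DMSO and 6.07, 5.69, 5.88, 6.36 and 4.22 RPKM with GW3965. Its lowest 3 values again came from these libraries. With 3796 to 7272 reads for CLU, 794 to 1534 for C1R and 167 to 448 for C1S per library, the spread within groups was 12.3, 5.08 and 4.87 times the counting error. These 3 libraries had totals of 39384637, 30610536 and 31896164 reads, within the range of the others, and 7SL RNA shares of 13.7, 20.4 and 15.2% against 12.0 to 23.2% over all libraries. The part of a culture or library difference in the pattern was not tested.

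**Figure D3:**
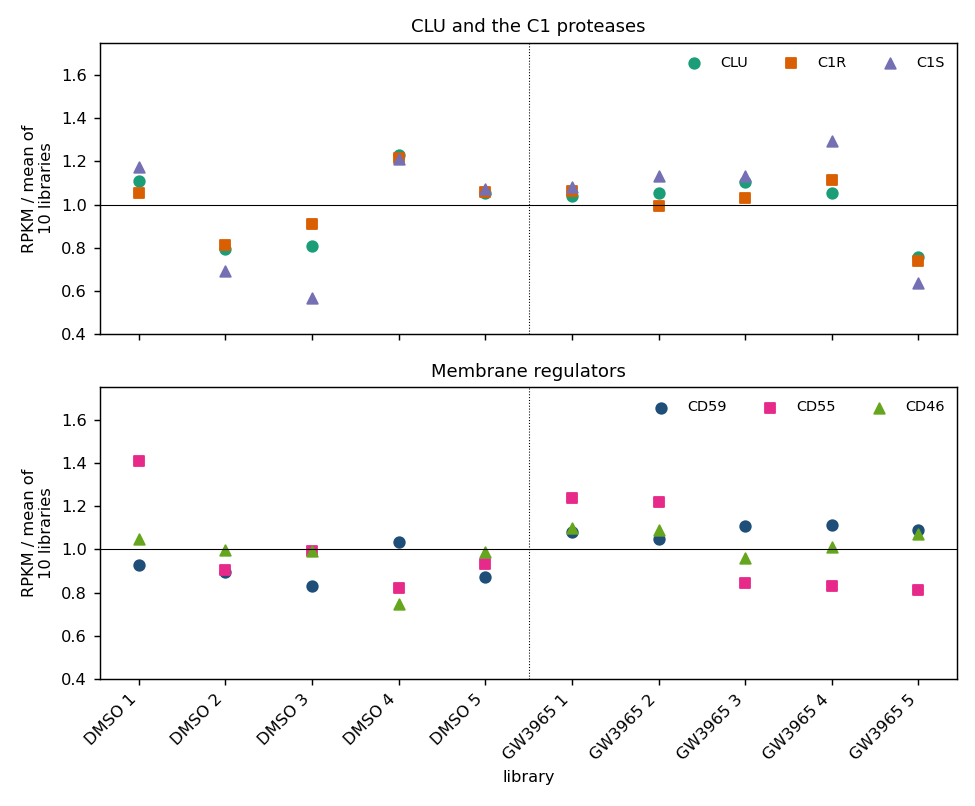
RPKM of each gene divided by its mean over the 10 libraries (y axis) in each library (x axis; the dotted line separates DMSO from GW3965), for CLU, C1R and C1S (top) and the membrane regulators (bottom). The top genes are low together in DMSO libraries 2 and 3 and GW3965 library 5, and CD55 is high in DMSO library 1 and GW3965 libraries 1 and 2.

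Between treatments, the means of CLU were 24.7 ± 4.75 and 24.7 ± 3.43 RPKM for DMSO and GW3965 (SD, n = 5; log2 fold change 0.01, standard error 0.14, limma adjusted p = 0.993). For C1R they were 5.77 ± 0.882 and 5.64 ± 0.831 RPKM (SD, n = 5; log2 fold change -0.03, standard error 0.13, limma adjusted p = 0.985), and for C1S 1.10 ± 0.344 and 1.24 ± 0.288 RPKM (SD, n = 5; log2 fold change 0.17, standard error 0.23, limma adjusted p = 0.948). The 95% intervals reached from 0.812-fold to 1.25-fold for CLU, from 0.803-fold to 1.19-fold for C1R and from 0.788-fold to 1.60-fold for C1S, unadjusted for the number of genes. The sign for CLU changed when DMSO library 2 or 3 or any of GW3965 libraries 1 to 4 was left out, and that for C1R when DMSO library 4 or GW3965 library 5 was (log2 fold changes 0.036 and 0.066). C1R and C1S are neighbours on chromosome 12 of GRCh38 (GENCODE 29), from 7080199 to 7092607 on the − strand and from 6988259 to 7071032 on the + strand, and CLU lies on another chromosome. The span of C1S overlaps LPCAT3, an LXR target that remodels phospholipids, on the opposite strand, with 2.32 ± 0.422 RPKM in DMSO and 3.27 ± 0.305 RPKM in GW3965 libraries (SD, n = 5; log2 fold change 0.49, limma adjusted p = 0.213), and EMG1, a ribosome assembly methyltransferase, with a log2 fold change of 0.40 (standard error 0.16, limma adjusted p = 0.631). C1RL, a protease paralog of C1R, overlaps it on the same strand and had a log2 fold change of 0.06 (standard error 0.15). The strand setting of the authors' counting is not given in the sources used here, so reads of these pairs may have been shared or lost. The pseudogene CDCA4P4 lies within CD46 on the same strand and had 20 to 37 reads per library.

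SERPING1, CFI and C3 were near the limit of detection in PC3 cells. SERPING1 had 18, 33, 10, 19 and 10 reads in DMSO libraries 1 to 5 and 22, 29, 17, 8 and 11 reads in GW3965 libraries 1 to 5. CFI had 2, 4, 9, 1 and 5 reads with DMSO and 7, 3, 6, 8 and 5 reads with GW3965. C3 had 5, 9, 6, 8 and 8 reads with DMSO and 19, 10, 13, 7 and 7 reads with GW3965. For all of these the groups overlapped, and the highest C3 value came from GW3965 library 1, with 0.0483 RPKM. None passed the filter of 0.5 RPKM. The two-sided exact permutation test on log2(RPKM + 0.1) gave unadjusted p = 0.921 for SERPING1, p = 0.437 for CFI and p = 0.103 for C3. Without GW3965 library 4, the exact permutation p of C3 was 0.0317, still unadjusted. In the limma fit with no filter, adjusted over 47537 genes, their adjusted p lay between 0.913 and 0.998. For C3 and CFI, the spread within groups was 1.02 and 1.18 times the counting error. The start of C3 overlaps the span of GPR108, which had 1213 to 1720 reads per library, and AC126283.2, which overlaps CFI, was listed at 0. AC008760.2, within C3, and MIR6843, within CLU, were listed at 0 as well, and the pseudogenes AC006512.1 and AC006512.2, within C1S, had at most 1 read per library.

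The rest of the pathway was taken from a list of 60 complement genes that includes the 9. Of these, 13 reached a mean of 0.5 RPKM, with 8 higher and 5 lower with GW3965, a median log2 fold change of 0.035 against 0.0034 over all tested genes, and 0 called by limma (2, CD59 and CALR, had an unadjusted p under 0.05). In the classical pathway only C1R and C1S of 8 genes were tested. The subunits of C1q, which recognizes bound antibody, were listed at 0 for C1QB and C1QC, and C1QA had at most 1 read per library. C4A and C4B, whose near-identical sequences let reads be split between them, had means of 0.361 and 0.37 RPKM. In the lectin pathway 1 of 9 was tested, the protease MASP2 (log2 fold change 0.04, standard error 0.12), and in the alternative pathway 1 of 4, the protease CFD (-0.12, standard error 0.10). In the terminal pathway 1 of 7 was tested, C5, the precursor of the membrane attack complex, with 3.05 RPKM in DMSO and 3.54 RPKM in GW3965 libraries (log2 fold change 0.22, standard error 0.13, limma adjusted p = 0.816). C8A and C8B were listed at 0, and C6 and C9 had at most 8 reads per library.

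Of 9 membrane regulators, the 3 described were tested, while the other 6 had at most 28 reads in a library. Of these 6, CSMD2 alone had groups that did not overlap, with 38 reads in all DMSO and 77 in all GW3965 libraries (0.0051 to 0.0192 and 0.0193 to 0.039 RPKM), and CSMD3 had 109 and 62 reads, with overlap. Both were named after their values were seen and were too low for the limma fit. How often the groups of genes this low do not overlap was not counted. Of 13 soluble regulators, 3 were tested, CLU, C1RL and VTN (vitronectin, which binds terminal complexes), the lowest of the group with a log2 fold change of -0.22 (standard error 0.19, limma adjusted p = 0.895). Among 10 receptors and binding proteins, C1QBP had a log2 fold change of -0.04 (standard error 0.12) and CALR, a chaperone that binds C1q at the cell surface, had 353 and 409 RPKM with DMSO and GW3965 (log2 fold change 0.21, standard error 0.08, limma adjusted p = 0.568). The anaphylatoxin receptors C3AR1 and C5AR1 had at most 19 reads per library.

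**Figure D4:**
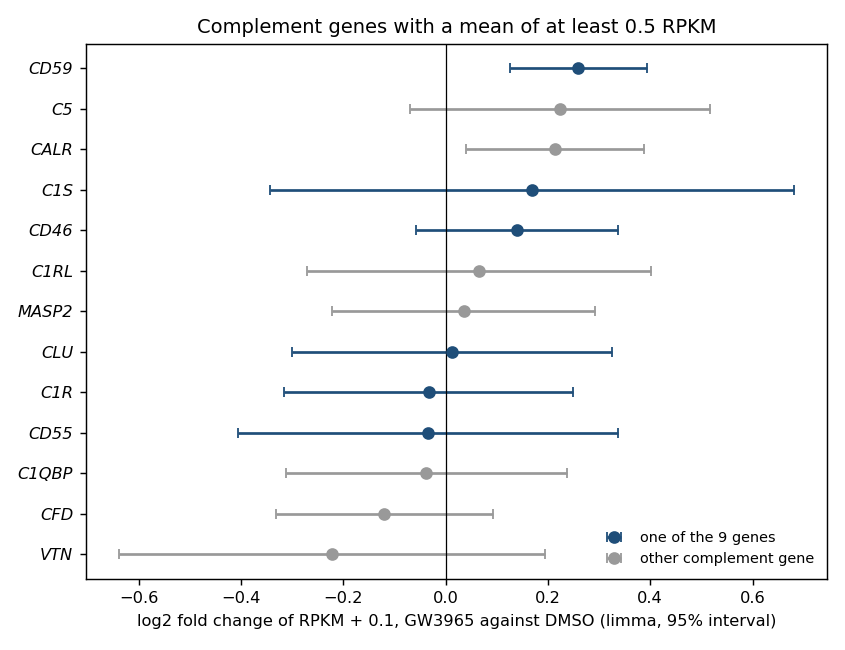
Log2 fold change on the RPKM + 0.1 scale, GW3965 against DMSO (x axis), with 95% intervals by limma, for the 13 of 60 complement genes (rows) with a mean of at least 0.5 RPKM. The unadjusted intervals of CD59 and CALR lie above 0, those of the other 11 include 0, and no gene passed the threshold after adjustment.

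CD59 and CD55 are held on the membrane by a GPI anchor, which is assembled in the endoplasmic reticulum. Of 33 listed symbols for its assembly, 31 were in the table and 29 were tested (PIGY was listed at 0, and TMEM246 had at most 6 reads per library), with 14 higher and 15 lower, a median log2 fold change of -0.011 and 0 called by limma (1 had an unadjusted p under 0.05). The highest was PIGX, a subunit of the first mannosyltransferase, with a log2 fold change of 0.20 (standard error 0.09, limma adjusted p = 0.707), and the lowest GPAA1, a subunit of the transamidase that attaches the anchor, with -0.12 (standard error 0.09, limma adjusted p = 0.853). PIGA, which starts the anchor and whose loss removes CD59 and CD55 from blood cells in paroxysmal nocturnal hemoglobinuria, had a log2 fold change of -0.09 (standard error 0.09).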

How the data were processed

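RNA of PC3 cells was measured in 10 libraries, 5 with DMSO and 5 with 1 µM of GW3965, grouped by sample title. The authors made single reads of 50 bases from ribosome-depleted RNA (the sample records name polyA RNA), aligned them with HISAT2, counted them per gene and deposited RPKM values. The methods name the mouse genome, the submitters' notes hg38, and the gene identifiers are human. The annotation release is not given in the sources used here. Reads were recovered as the smallest whole numbers behind each gene's values, with shared factors set by whole gene lengths.

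limma 3.58.1 in R 4.3.3 (lmFit, eBayes with a trend) was run on log2(RPKM + 0.1) for genes whose mean reached 0.5 RPKM. P-values are two-sided and were adjusted by the Benjamini-Hochberg method, after a check on simulated data. Genes under this filter were compared by an exact permutation test in scipy 1.17.1. Members and lists were chosen with earlier results of these data known. Named were the 9 genes, list genes past the threshold or at either end of a role group, overlapping and neighbouring genes, markers, LXR targets and genes most like CD59; others were chosen after their values were seen. Alternatives were pseudocounts, filters, scalings, the replicate number as a block, no trend, library weights, voom, a principal component as covariate and the loss of each library. Some listed genes are not reported here. The gene lengths of GENCODE 29 were tried after the data had been seen.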

Additional observations from a re-analysis of the deposited data

Results flagged for a closer look

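In 2 of 18 groups of 5 libraries, over the 9 genes, 1 library stood apart from the other 4, by a gap to its neighbour of more than 0.71 of the group's range in RPKM. Chance alone gives about 1 such group in 20. CD46 was lowest in DMSO library 4, at 7.55 RPKM against 9.96 to 10.6 in the other 4, with a gap of 0.8 of the range. CLU was lowest in GW3965 library 5, at 18.7 RPKM against 25.7 to 27.3, with a gap of 0.814, while DMSO libraries 2 and 3 had similarly low values of 19.6 and 20.0 RPKM.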

How the results depend on the processing

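The log2 fold changes of CD46 and C1S kept their sign and stayed short of the threshold in all 21 alternatives, but their size moved. Without single libraries that of CD46 lay between 0.054 and 0.17, and that of C1S between 0.018 (without DMSO library 3) and 0.32 (without GW3965 library 5). That of CD59 kept its sign in all 21 and was past the threshold in 2 of them, with library weights (0.30) and without DMSO library 4, and it lay between 0.23 and 0.31 when single libraries were left out. By these settings 1 of the complement genes, CD59, was called in place of 0, both among the 9 and in the complement list, whose counts lay between 0 and 1 over the fits without 1 library. No gene of the GPI anchor list was called in any of the 21. The sign of CD55 changed with the first principal component as a covariate (0.018), and without single libraries it lay between -0.12 and 0.090. That of CLU changed with quantile normalization (-0.0079) and lay between -0.065 and 0.11 without single libraries, and that of C1R changed with library weights (0.041) and lay between -0.11 and 0.066. For SERPING1 the difference in mean log2(RPKM + 0.1) lay between -0.088 and 0.065 without single libraries.

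Over all tested genes the count of calls, 32, was 21 with no filter, 20 without the trend, 56 with library weights, 63 with voom on the recovered reads and 83 with the principal component as covariate, and between 17 and 38 without single libraries. The loss of GW3965 library 2 or of library 4 gave 17, that of DMSO library 3 gave 18, and those of GW3965 libraries 3 and 5 gave 19 and 21. With the replicate number as a block it was 16, and CD59 had an adjusted p of 0.278 by limma. Whether the numbers pair the libraries cannot be told from these values. Deviations of same-numbered libraries correlated across genes between -0.138 and 0.16, and only for replicate 4 was this above the highest other (0.16 against 0.139). The block lowered the standard error of CD55 from 0.17 to 0.10, left that of CLU at 0.14 and changed no call among the 9 genes. The causes of these differences were not tested. With GENCODE 29 gene lengths the mean RPKM of SERPING1 was 0.134 and that of C1S 1.50. The counting errors given leave out duplicates of PCR, because molecules were not tagged.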

Other observations

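The likeness measure was also applied to CLU and CD55, a choice made after their values had been seen. Nearest to CLU over the 10 libraries were TNRC18 (root mean square difference 0.175), RBP4 (0.177), which encodes the plasma carrier of retinol, SPARC (0.206), a matrix glycoprotein, CREB3L1 (0.257), a transcription factor of the secretory pathway, and TMEM64 (0.273). Their limma log2 fold changes between treatments lay between -0.016 for TNRC18 and 0.16 for RBP4, with adjusted p from 0.956 to 0.989. Nearest to CD55 were DYNLT3 (0.307), ZNF248 (0.373), AFF4 (0.396), PMS2P6 (0.403) and PRKAA1 (0.428), a catalytic subunit of AMP-activated kinase. These are descriptions over libraries that share 2 treatment groups and 1 normalization.

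The gene lengths implied by the deposited values were larger than those of GENCODE 29 by a factor of 2.01 for SERPING1, 1.74 for CD55, 1.78 for CD46 and 1.39 for C3, and by 1.02 for CD59. RPKM values of these genes are lowered by the same factors, equally in both treatments, so that levels between genes move and fold changes do not.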
